A study of Mus musculus with 8 samples.

Results

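The genes described here are 39 genes of the cell division cycle, chosen by symbol from a table of 25572 genes. They cover DNA replication and nucleotide supply (10 genes), the chromatin of dividing cells (4), cyclins and their kinase partners (6), partners of the anaphase-promoting complex (2), mitotic kinases and checkpoint proteins (6), centromere proteins (3), spindle motors and midzone proteins (5), and tubulins with stathmin (3). They were measured by RNA sequencing in neutrophils sorted from PyMT-N tumours carried by C57/B6 mice, as 4 ICAM1-high libraries (CD54-positive in the titles) and 4 ICAM1-low libraries (CD54-negative). ICAM1, also named CD54, is a surface adhesion molecule. The libraries are numbered 1, 2, 3 and 5 in both groups, and values below are given in that order. The sources used here do not give the age or sex of the mice, what the PyMT-N tumour is or whether animals were pooled. Since the labels do not tie libraries to separate animals, a p-value covers only how far these libraries spread, and that spread may be technical.

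A cell that divides copies its DNA in S phase and separates the copies in mitosis. Much of the machinery for each step is transcribed in waves, driven by E2F factors ahead of S phase and by the B-MYB and FoxM1 complexes ahead of mitosis, so resting cells hold little of these RNAs. Neutrophils divide as precursors in the bone marrow and leave the cycle before they mature, while macrophages and lymphocytes in tissue can still divide. The question put to the data was which of the sorted fractions carries the RNA of dividing cells. In RNA from a whole sorted sample, fewer cells of a type and less RNA per cell cannot be told apart.

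Library totals ran from 15940328 to 21825096 estimated counts, each from 150 pg of RNA, and levels are given as CPM, the counts relative to the library's total after TMM scaling, unless said otherwise. A count of 3 was taken as the detection floor, which is 0.121 to 0.263 CPM. The floor covers counting error only. Icam1 itself, the gene of the sort marker, was at 42.4 to 122 CPM in the ICAM1-high libraries, against 4.31 to 18.7 CPM in 3 ICAM1-low libraries, with 138 CPM in the one labelled ICAM1-low replicate 5. The Icam1 mRNA of that library therefore goes against its label. Its summed macrophage markers, at 1266 CPM, lay below the ICAM1-high range of 5698 to 17135 CPM. Its summed mature neutrophil genes, at 46179 CPM, lay above the ICAM1-high range given below. The TMM factor of that library was 0.718, against 0.956 to 1.17 in the others, which raised its CPM. Calls on cell cycle genes that change without that library are given both ways, as are values of several genes that move much. The neutrophil label was checked on 12 mature neutrophil genes, all tested and none at 0 in any library, with summed levels of 3405 to 6285 CPM in ICAM1-high and 7623 to 46179 CPM in ICAM1-low libraries. Of these 12, 5 were lower in ICAM1-high libraries in edgeR, and 11 were lower at the unadjusted p. Ly6g, the surface marker of mouse neutrophils, was at 0.095 to 3.99 CPM in ICAM1-high and 25.9 to 41.1 CPM in ICAM1-low libraries.

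The ICAM1-high libraries held more cell cycle RNA. The summed level of the 39 genes was 4109, 3035, 2261 and 4232 CPM in ICAM1-high libraries, against 1261, 1526, 1193 and 1327 CPM in ICAM1-low libraries. Every ICAM1-high library lay above every ICAM1-low library, and the ICAM1-high mean of 3409 ± 936 CPM was 2.57-fold the ICAM1-low mean of 1326 ± 144 CPM (SD, n = 4 each). The tubulin genes Tubb5 and Tuba1b, which most cells use for their skeleton, made up much of these sums. Without both, the sum was 2466, 1617, 1078 and 2564 CPM in ICAM1-high libraries and 455, 486, 334 and 761 CPM in ICAM1-low libraries, a 3.79-fold difference of means. Again no library of either group reached into the range of the other.

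Of the 39 genes, 36 (92.3%) had a positive log2 fold change, ICAM1-high over ICAM1-low, against 47.7% of all 13575 genes tested. The median log2 fold change was 1.93 for the cell cycle genes, against -0.07 for all genes tested. Tyms, Hmgb2 and Cks2 were the 3 with negative values. In the edgeR quasi-likelihood test, adjusted over all genes tested with a threshold of 0.05, 3 of the 39 rose (Bub1b, Cenpe and Mcm5; 7.69%) and 0 fell. Over all genes tested, 1.22% passed as higher and 0.273% as lower. With the unadjusted p under 0.05, 26 of the 39 (66.7%) were higher and 0 lower, against backgrounds of 7.96% and 8.96%. With DESeq2, 12 of the 39 passed as higher and 0 as lower, and with limma-voom 11 and 0. The backgrounds for higher genes were 4.3% with DESeq2 and 3.54% with limma-voom. For 19 of the 39 (48.7%) the lowest ICAM1-high library lay above the highest ICAM1-low library, against 7.51% of all genes tested. For 0 of the 39 did every ICAM1-high library lie below every ICAM1-low one, against 3.89% of all genes tested.

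The count of 3 genes depended on single libraries. It was 0 without ICAM1-low replicate 1 and 1 (Bub1b) without ICAM1-high replicate 1, 2, 3 or 5 or without ICAM1-low replicate 2. It was 8 without the library labelled ICAM1-low replicate 5, and these were Mcm5, Mcm6, Mki67, Bub1b, Cenpa, Cenpe, Prc1 and Stmn1. Without ICAM1-low replicate 3 it was 2, Mcm3 and Bub1b. The median log2 fold change ran from 1.74 to 2.15 over these fits. Leaving the library labelled ICAM1-low replicate 5 out of the fit also moved the log2 fold changes of several genes that passed neither way by more than 1.5 times: Mcm4 to 1.68, Rrm1 to 1.91, Top2a to 2.85, Tyms to -0.78, Cks2 to -0.32 and Bub1 to 0.34.

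All 39 genes passed the filter on low counts. At least 10 counts were found in all 4 ICAM1-high libraries for 39 genes and in all 4 ICAM1-low libraries for 27. The other 12, which passed through the ICAM1-high libraries, were Mcm5, Ccnb2, Aurka, Aurkb, Birc5, Plk1, Bub1, Cenpe, Cenpf, Tpx2, Kif11 and Nusap1. Of the 27, 24 had a positive log2 fold change, their median was 1.87 and 1 (Bub1b) rose; these 27 were split off by their values, so no test is given. With no filter, the median of the 39 genes was 1.94, against 0.11 over all 25565 genes, and 36 were positive, against 52.4% of all genes.

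**Figure D1:**
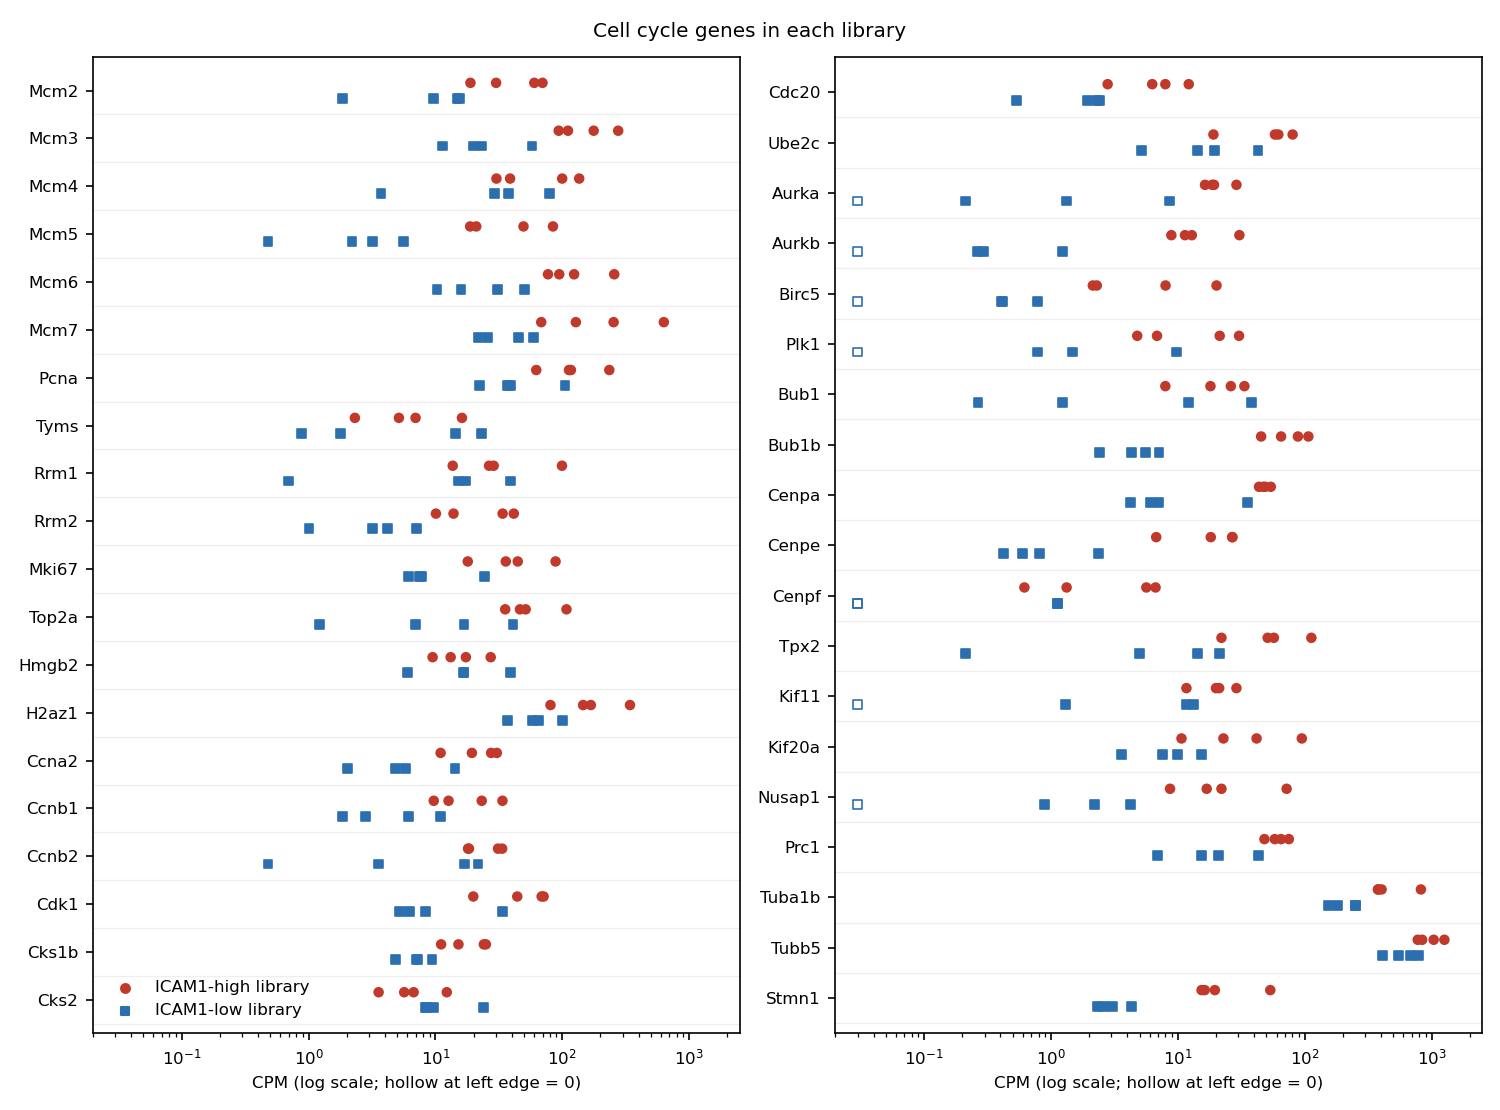
CPM of each of the 39 genes in every library on a log axis, with ICAM1-high libraries as red circles above ICAM1-low libraries as blue squares; hollow squares at the left edge are libraries at 0. For 19 genes the red and blue points do not overlap. The 7 genes with a library at 0 have it among the ICAM1-low libraries, as all 39 have at least 10 counts in every ICAM1-high library.

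**Figure D2:**
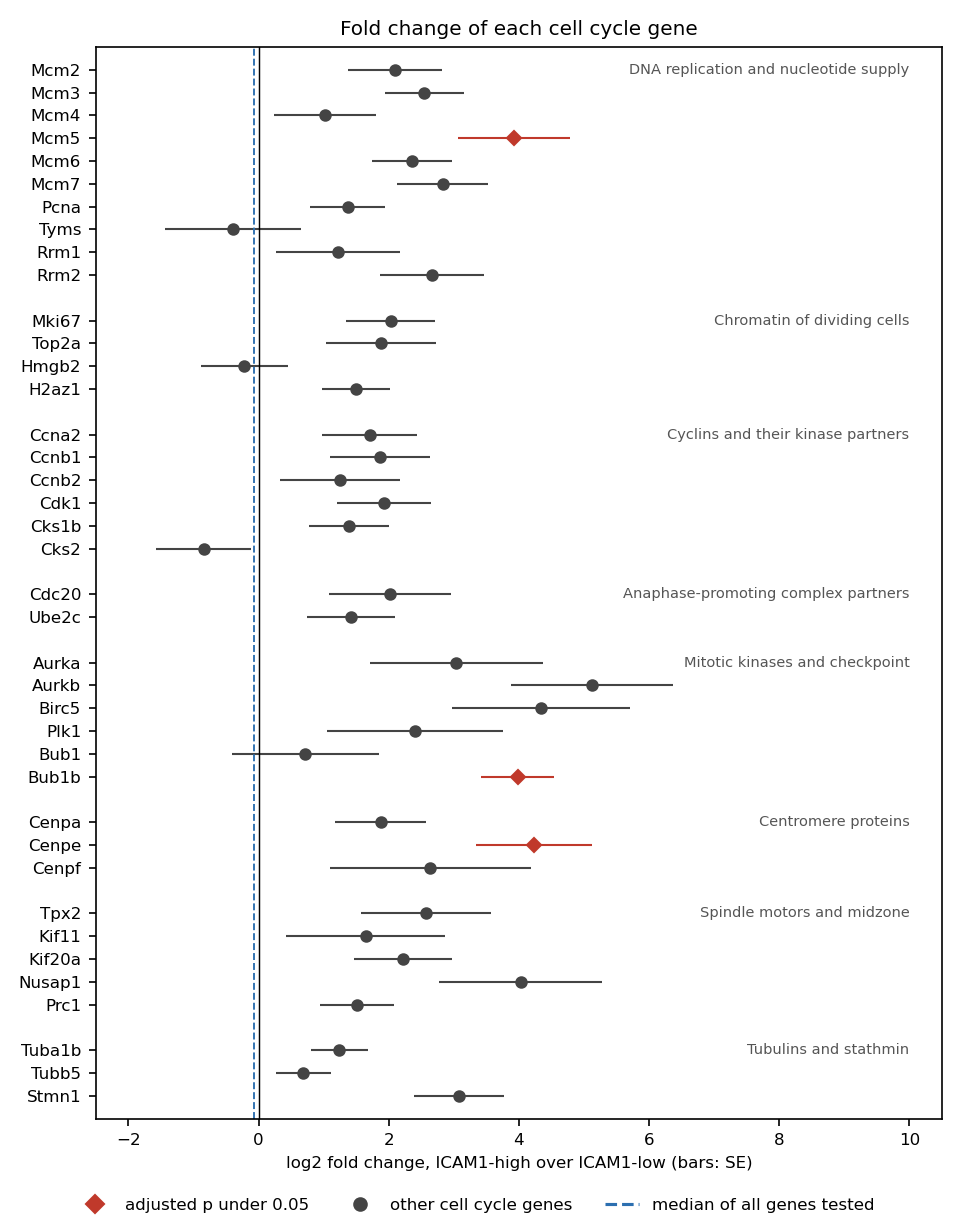
Fold change of each gene, ICAM1-high over ICAM1-low, on a log2 axis with its SE, grouped by role; red diamonds passed the adjusted threshold in edgeR and the dashed line is the median of all genes tested (-0.07). Points lie to the right of 0 for 36 of 39 genes.

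The promoters of the genes that passed the test are shown because E2F factors and the mitotic complexes act at short elements near the start of cell cycle genes. Cdk1, which did not pass, is shown beside them as a gene that holds all the elements searched, a choice made after the search. The sequences are the 250 bases before the annotated start, from RefSeq on GRCm38.p6 (the counts were made on GRCm39): Mcm5 at chr8:75109259-75109508, plus strand; Bub1b at chr2:118597961-118598210, plus strand; Cenpe at chr3:135212313-135212562, plus strand; and Cdk1 at chr10:69352913-69353162, minus strand. They run 5′ to 3′, and capitals mark the elements.
Mcm5: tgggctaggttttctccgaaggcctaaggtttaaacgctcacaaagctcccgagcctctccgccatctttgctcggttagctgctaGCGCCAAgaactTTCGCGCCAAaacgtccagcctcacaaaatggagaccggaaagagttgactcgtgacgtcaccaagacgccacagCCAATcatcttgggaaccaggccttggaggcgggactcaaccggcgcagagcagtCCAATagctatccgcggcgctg
Bub1b: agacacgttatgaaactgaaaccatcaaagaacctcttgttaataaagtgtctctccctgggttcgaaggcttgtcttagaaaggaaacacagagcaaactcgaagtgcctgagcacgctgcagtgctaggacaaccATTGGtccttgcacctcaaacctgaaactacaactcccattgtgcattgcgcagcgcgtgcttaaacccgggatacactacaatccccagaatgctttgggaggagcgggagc
Cenpe: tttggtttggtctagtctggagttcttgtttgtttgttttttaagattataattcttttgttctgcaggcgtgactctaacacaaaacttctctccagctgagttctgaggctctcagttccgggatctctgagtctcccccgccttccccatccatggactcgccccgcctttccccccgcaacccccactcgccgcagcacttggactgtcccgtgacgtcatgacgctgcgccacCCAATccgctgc
Cdk1: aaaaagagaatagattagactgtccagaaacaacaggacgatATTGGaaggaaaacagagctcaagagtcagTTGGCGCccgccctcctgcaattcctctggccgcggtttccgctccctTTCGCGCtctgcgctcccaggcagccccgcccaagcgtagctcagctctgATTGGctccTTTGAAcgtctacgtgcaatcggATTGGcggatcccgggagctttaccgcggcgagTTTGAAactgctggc
The elements searched, on both strands, were the CHR element TTTGAA, the CCAAT box, and the E2F cores TTCGCGC and TTGGCGC. In Mcm5, a match of the first E2F core overlaps one of the second on the other strand. Of the 39 genes, 33 had a sequence in the table. A CCAAT box stood in 29 of the 33 (87.9%), against 40.5% of 10045 tested genes with a sequence. An E2F core stood in 6 (18.2%), against 6.52% of those tested genes, and a CHR element in 11 (33.3%), against 13% of them. Over all 27025 genes with a sequence, the shares were 37.5% for the CCAAT box, 3.66% for an E2F core and 18.3% for the CHR element. Bub1b and Cenpe held a CCAAT box alone, Mcm5 held CCAAT boxes and E2F cores. A match is a description of the letters, not a site shown to be used.

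The 10 genes of DNA replication and nucleotide supply summed to 1398, 712, 458 and 1208 CPM in ICAM1-high libraries, against 188, 195, 180 and 344 CPM in ICAM1-low libraries. The groups did not overlap, and the means differed 4.17-fold. Of the 10, 9 had a positive log2 fold change (median 2.23) and 1 passed the test. Mcm2 to Mcm7 encode the subunits of the helicase that is loaded at replication origins and unwinds DNA. Mcm5 (ENSMUSG00000005410) was at 49.5, 18.8, 21.0 and 84.5 CPM in ICAM1-high libraries and at 2.2, 3.2, 0.479 and 5.61 CPM in ICAM1-low libraries. Its lowest ICAM1-high library was thus above its highest ICAM1-low one. Its log2 fold change was 3.92 ± 0.86 (SE; edgeR adjusted p = 0.0495), and its adjusted p ran from 0.0274 to 0.153 over the fits that left out 1 library each. It passed in 7 of 16 alternatives. Of the 10 genes, Mcm5 alone passed the filter on low counts through the ICAM1-high libraries.

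The other helicase subunits did not pass. Mcm3 was at 276, 93.8, 111 and 177 CPM in ICAM1-high and at 20, 11.3, 57.7 and 23.3 CPM in ICAM1-low libraries, without overlap (log2 fold change 2.55 ± 0.60, with SE here and in the brackets that follow; edgeR adjusted p = 0.0611). Mcm7 had 632, 254, 68.3 and 128 CPM in ICAM1-high libraries, against 25.9, 59.2, 45 and 21.7 CPM in ICAM1-low libraries. Mcm7 did not overlap either, but its ICAM1-high libraries spread widely, with replicate 1 far above replicate 3 (2.83 ± 0.70; edgeR adjusted p = 0.0723). Mcm6 was at 77.2, 124, 94.7 and 257 CPM in ICAM1-high libraries and at 30.9, 15.9, 10.3 and 50.3 CPM in ICAM1-low libraries, again apart (log2 fold change 2.36 ± 0.61; edgeR adjusted p = 0.0824). Mcm2, whose log2 fold change was 2.10 ± 0.72 (edgeR adjusted p = 0.178), also had groups that did not overlap. Mcm4 did overlap, with 30.3 to 136 CPM in ICAM1-high and 3.73 to 79.6 CPM in ICAM1-low libraries, and its log2 fold change was 1.02 ± 0.78 (edgeR adjusted p = 0.543).

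Among the genes that serve the replication fork and its nucleotides, Rrm2 encodes the ribonucleotide reductase subunit made in S phase. Rrm2 was at 33.9, 10.1, 13.9 and 41.5 CPM in ICAM1-high and at 7.12, 3.2, 1.01 and 4.21 CPM in ICAM1-low libraries. The groups lay apart, but the difference did not pass (2.67 ± 0.80; edgeR adjusted p = 0.13). Rrm1, the large subunit of the same enzyme, ran from 13.7 to 99.5 CPM in ICAM1-high libraries and from 0.692 to 38.9 CPM in ICAM1-low libraries, which overlap. Pcna, the sliding clamp of the DNA polymerases, had 113, 117, 62.4 and 235 CPM in ICAM1-high libraries, against 37.2, 39.0, 22.3 and 105 CPM in ICAM1-low libraries. Its overlap came from the library labelled ICAM1-low replicate 5, which was above ICAM1-high replicate 3 (1.37 ± 0.58; edgeR adjusted p = 0.264). Tyms, thymidylate synthase, did not follow the other 9 genes in direction. It was at 6.98, 5.16, 2.32 and 16.2 CPM in ICAM1-high libraries and at 1.79, 14.4, 23.2 and 0.877 CPM in ICAM1-low libraries, with both the highest and the lowest value among the ICAM1-low libraries. Its log2 fold change was -0.39 ± 1.05 (edgeR adjusted p = 0.885), and 0.42 without ICAM1-low replicate 3.

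The 4 chromatin genes summed to 234, 251, 181 and 567 CPM in ICAM1-high libraries, against 96.4, 97.4, 51.6 and 206 CPM in ICAM1-low libraries. These sums overlapped, since the library labelled ICAM1-low replicate 5 exceeded ICAM1-high replicate 3. With library sizes only, the sums did not overlap, at 211 CPM or more in ICAM1-high and 147 CPM or less in ICAM1-low libraries. None of the 4 passed, with 3 below the unadjusted threshold. Mki67 encodes Ki-67, the chromosome surface protein used in pathology to mark cycling cells. It was at 18, 35.9, 44.6 and 88.6 CPM in ICAM1-high libraries and at 7.78, 6.11, 7.45 and 24.4 CPM in ICAM1-low libraries. Only the library labelled ICAM1-low replicate 5 reached into the ICAM1-high range (2.03 ± 0.68; edgeR adjusted p = 0.167). Without that library Mki67 passed (edgeR adjusted p = 0.0427, against 0.0427 to 0.373 over the fits that left out 1 library each). Top2a, the topoisomerase that untangles chromosomes, ran from 35.5 to 108 CPM in ICAM1-high and from 1.22 to 40.9 CPM in ICAM1-low libraries, with the same single library overlapping. H2az1, a histone H2A variant, was at 168, 146, 80.8 and 342 CPM in ICAM1-high libraries, against 64.8, 57.9, 36.9 and 101 CPM in ICAM1-low libraries (log2 fold change 1.5 ± 0.52; edgeR adjusted p = 0.184), and it overlapped through that library as well. Hmgb2, a DNA-bending protein, showed no separation at all, at 9.51 to 27.3 CPM in ICAM1-high and 6.02 to 38.9 CPM in ICAM1-low libraries, and its log2 fold change of -0.22 ± 0.67 changed sign with the scaling.

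The 6 cyclins and kinase partners had summed levels of 168, 126, 84.8 and 198 CPM in ICAM1-high libraries and 38.6, 80.2, 38.8 and 66.6 CPM in ICAM1-low libraries, which did not overlap. None of the 6 passed and 5 had a positive log2 fold change. Cdk1, the kinase that drives entry into mitosis, was at 68.8, 44.2, 19.9 and 71.3 CPM in ICAM1-high libraries, against 6.3, 33.7, 8.41 and 5.18 CPM in ICAM1-low libraries. ICAM1-low replicate 2 stood above the other ICAM1-low libraries and above ICAM1-high replicate 3 (1.93 ± 0.72; edgeR adjusted p = 0.21). Its cyclins spread in the same range of fold: the log2 fold change was 1.87 ± 0.77 for Ccnb1, 1.71 ± 0.73 for Ccna2, which acts from S phase onward, and 1.25 ± 0.92 for Ccnb2, and all 3 had overlapping groups. The small Cdk-binding proteins Cks1b and Cks2, which are close in sequence, went in opposite directions without passing. Cks1b had 15.2, 24.1, 11.1 and 25.0 CPM in ICAM1-high and 9.42, 4.86, 7.29 and 7.1 CPM in ICAM1-low libraries, with no overlap (1.39 ± 0.62; edgeR adjusted p = 0.281). Cks2 had 12.3, 5.68, 3.57 and 6.74 CPM in ICAM1-high libraries, against 8.3, 8.54, 9.64 and 24.0 CPM in ICAM1-low libraries. Cks2 overlapped between groups and was highest in the library labelled ICAM1-low replicate 5. Its log2 fold change of -0.84 ± 0.73 was the lowest of the 39 (edgeR adjusted p = 0.593).

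The anaphase-promoting complex tags cyclin B and securin for destruction, and Cdc20 is its activator in mitosis. Cdc20 was low throughout, at 12.2, 7.98, 2.8 and 6.29 CPM in ICAM1-high libraries and 2.41, 2.31, 0.532 and 1.93 CPM in ICAM1-low libraries. The groups lay just apart (2.02 ± 0.93; edgeR adjusted p = 0.298). Ube2c, the ubiquitin-conjugating enzyme of the complex, had 80.4, 62.0, 19.1 and 58.3 CPM in ICAM1-high libraries, against 14.3, 19.6, 42.9 and 5.18 CPM in ICAM1-low libraries. ICAM1-low replicate 3, the library lowest for most of the other genes, was its highest ICAM1-low library (1.42 ± 0.68; edgeR adjusted p = 0.316).

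The 6 mitotic kinase and checkpoint genes had summed levels of 180, 142, 122 and 191 CPM in ICAM1-high libraries and 39.2, 44.9, 2.88 and 9.91 CPM in ICAM1-low libraries, which did not overlap. The means differed 6.56-fold, and 5.48-fold without the library labelled ICAM1-low replicate 5. Of the 6, 1 passed, and all but that one, Bub1b, passed the filter on low counts through the ICAM1-high libraries. Bub1b (ENSMUSG00000040084) encodes BubR1, a part of the checkpoint complex that holds back Cdc20 until every chromosome is attached. It was at 107, 88.5, 45.4 and 65.2 CPM in ICAM1-high libraries, against 7.12, 4.33, 2.4 and 5.53 CPM in ICAM1-low libraries. No ICAM1-low library came near the ICAM1-high range. Bub1b had the smallest p of the 39, with 3.98 ± 0.56 as its log2 fold change (edgeR adjusted p = 0.0119). It passed in 15 of 16 alternatives, the exception being the fit without ICAM1-low replicate 1 (edgeR adjusted p = 0.0521, within 0.0116 to 0.0521 over the fits that left out 1 library each).

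The partner checkpoint kinase Bub1 did not share this pattern. It was at 7.98, 18.1, 33.5 and 26.2 CPM in ICAM1-high and 12.1, 38.4, 0.266 and 1.23 CPM in ICAM1-low libraries, with the highest value in ICAM1-low replicate 2 (0.72 ± 1.13; edgeR adjusted p = 0.79). Aurkb and Birc5 (survivin) encode partners in the chromosomal passenger complex, which corrects faulty chromosome attachments. Aurkb had 12.9, 8.9, 11.4 and 30.6 CPM in ICAM1-high libraries, against 1.23, 0.296, 0 and 0.263 CPM in ICAM1-low libraries, of which 2 lay at or under the floor. Its log2 fold change of 5.12 ± 1.24 was the highest of the 39 but did not pass (edgeR adjusted p = 0.0666). Birc5 had 2.14, 2.3, 8.01 and 20.2 CPM in ICAM1-high and 0.41, 0.415, 0 and 0.789 CPM in ICAM1-low libraries, so both genes lay apart by group (4.34 ± 1.37; edgeR adjusted p = 0.146). Aurka, the kinase of the spindle poles, was at 29.0, 19.3, 16.4 and 18.7 CPM in ICAM1-high libraries and at 8.55, 0, 0.213 and 1.32 CPM in ICAM1-low libraries. Plk1, a kinase of mitotic entry and spindle assembly, had 21.4, 4.79, 6.86 and 30.4 CPM in ICAM1-high libraries, against 9.73, 1.48, 0 and 0.789 CPM in ICAM1-low libraries. ICAM1-low replicate 1 carried most of the ICAM1-low signal of both kinases, and neither passed (edgeR adjusted p = 0.277 for Aurka and 0.395 for Plk1).

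The 3 centromere genes summed to 71.2, 66.6, 66.5 and 82.6 CPM in ICAM1-high libraries, against 8.04, 8.83, 4.63 and 37.7 CPM in ICAM1-low libraries. The groups did not overlap, and the library labelled ICAM1-low replicate 5 stood above the other ICAM1-low libraries. The means differed 4.84-fold with that library and 10-fold without it. Cenpa made up most of the ICAM1-high sums. Cenpe (ENSMUSG00000045328), a motor that carries chromosomes to the spindle equator, was at 26.8, 18.2, 6.76 and 27 CPM in ICAM1-high and at 0.819, 0.593, 0.426 and 2.37 CPM in ICAM1-low libraries. These did not overlap, and the log2 fold change was 4.23 ± 0.89 (edgeR adjusted p = 0.0451). Cenpe passed in 7 of 16 alternatives, with an adjusted p of 0.0191 to 0.135 in edgeR over the fits that left out 1 library each. Cenpe and Cenpf passed the filter on low counts through the ICAM1-high libraries. Cenpa, the histone H3 variant that marks the centromere, had 43.7, 47.1, 54.1 and 48.9 CPM in ICAM1-high libraries, against 6.09, 7.12, 4.21 and 35.3 CPM in ICAM1-low libraries. With the library labelled ICAM1-low replicate 5 it did not pass (1.88 ± 0.70; edgeR adjusted p = 0.211), and without it the edgeR adjusted p was 0.0166, against 0.0166 to 0.359 over the fits that left out 1 library each. Cenpf, a kinetochore protein, was at 0.618, 1.33, 5.65 and 6.68 CPM in ICAM1-high libraries, against 1.13, 1.13, 0 and 0 CPM in ICAM1-low libraries. Its groups overlapped (2.64 ± 1.54; edgeR adjusted p = 0.413).

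The 5 spindle genes summed to 304, 230, 128 and 199 CPM in ICAM1-high libraries and to 64.3, 35.8, 10.7 and 86.7 CPM in ICAM1-low libraries, without overlap. The means differed 4.36-fold, and 5.83-fold without the library labelled ICAM1-low replicate 5. None of the 5 passed, and 3 of them passed the filter on low counts through the ICAM1-high libraries. Nusap1, which bundles spindle microtubules, was at 72.1, 16.9, 8.69 and 22.1 CPM in ICAM1-high libraries, against 4.25, 0.889, 0 and 2.19 CPM in ICAM1-low libraries. Tpx2, which activates Aurora A on the spindle, had 51.1, 113, 22.1 and 57.2 CPM in ICAM1-high and 21.4, 4.98, 0.213 and 14.3 CPM in ICAM1-low libraries. Both lay apart by group, Tpx2 by a margin of less than 1 CPM (4.03 ± 1.25 for Nusap1, edgeR adjusted p = 0.141; 2.57 ± 1.0 for Tpx2, edgeR adjusted p = 0.226). Prc1, which crosslinks the microtubules of the midzone, was at 65.2, 48.2, 75.1 and 58.1 CPM in ICAM1-high libraries, against 15.4, 21.0, 6.87 and 43.4 CPM in ICAM1-low libraries. It did not overlap, its log2 fold change was 1.51 ± 0.57 (edgeR adjusted p = 0.217), and it passed without the library labelled ICAM1-low replicate 5 (edgeR adjusted p = 0.0498, against 0.0498 to 0.364 over the fits that left out 1 library each). The motors Kif20a, which acts in cytokinesis, and Kif11, which pushes the spindle poles apart, overlapped between groups, with log2 fold changes of 2.22 ± 0.75 and 1.65 ± 1.22.

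Stmn1 encodes stathmin, which destabilizes microtubules and is abundant in proliferating cells. It was at 16.3, 19.6, 15.4 and 53.6 CPM in ICAM1-high and at 4.35, 2.61, 2.34 and 3.07 CPM in ICAM1-low libraries. The groups lay apart, and the difference came just short of the threshold (3.08 ± 0.69; edgeR adjusted p = 0.0535). Tuba1b, an alpha tubulin, had 380, 378, 404 and 825 CPM in ICAM1-high libraries, against 253, 252, 182 and 153 CPM in ICAM1-low libraries. It also lay apart (1.24 ± 0.44; edgeR adjusted p = 0.189). Tubb5, a beta tubulin, had the highest CPM of the 39 genes and one of the smallest differences, at 1263, 1040, 779 and 844 CPM in ICAM1-high libraries and 552, 787, 676 and 413 CPM in ICAM1-low libraries. Its groups overlapped by a few CPM (0.69 ± 0.42; edgeR adjusted p = 0.427). Tubulin genes have near-identical copies, and how their shared reads were divided is uncertain.

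**Figure D3:**
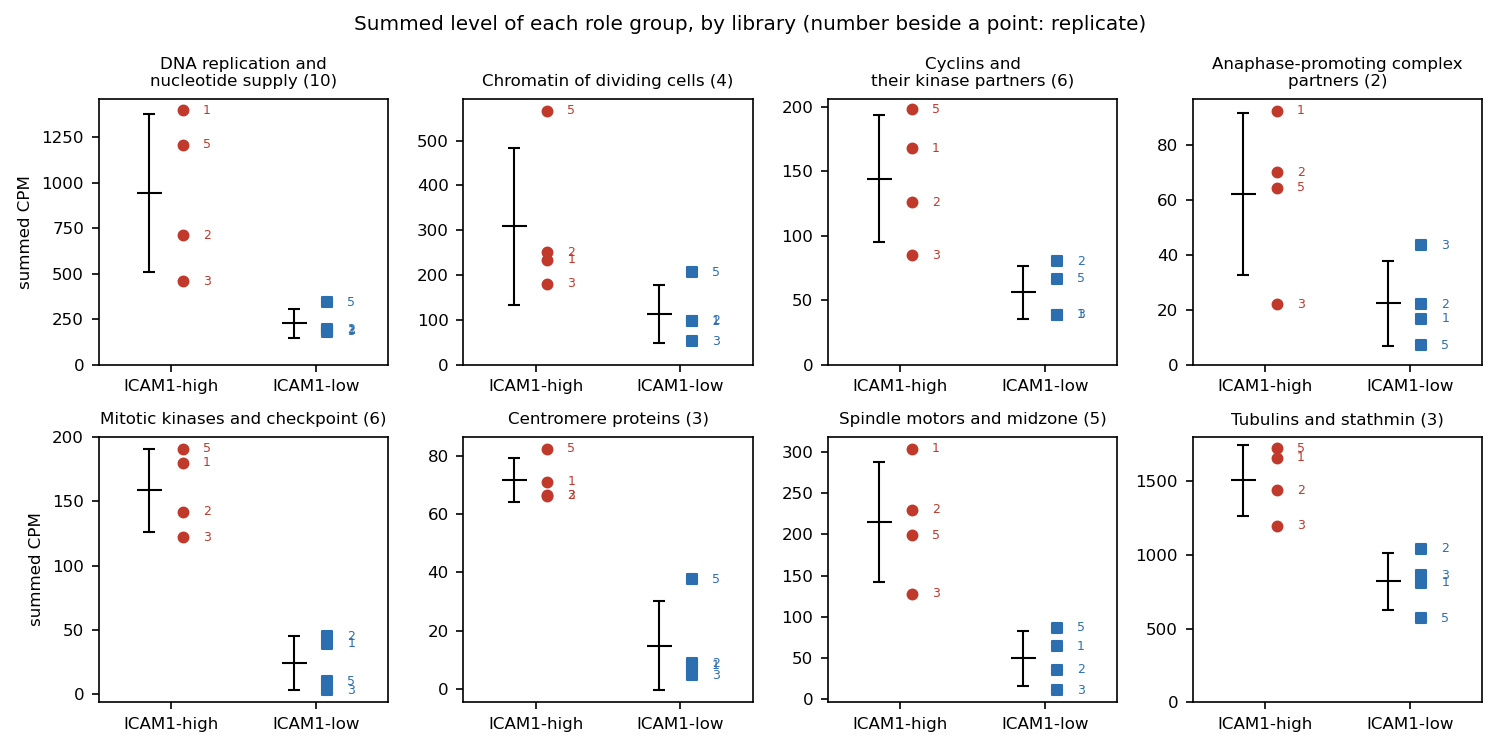
Summed CPM of each role group by library, one panel per group with its number of genes, with the replicate number beside each point and the mean with its SD as bars to the left of the points. Sums of 6 role groups did not overlap between ICAM1-high and ICAM1-low libraries. Those of the anaphase-promoting complex partners and of the chromatin genes did, the latter not with library sizes only.

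Levels of different genes can be set against each other only per length, here as counts per length scaled to the same total in every library. On that scale Tubb5 had the highest level of the 39, with 672 ± 114 across ICAM1-high and 404 ± 143 across ICAM1-low libraries (SD, n = 4 each). Mcm7 followed Tuba1b in ICAM1-high libraries, at 401 ± 342 against 57.8 ± 30.6 in ICAM1-low libraries. Kif11 and Mki67, at 6.81 ± 2.39 and 7.13 ± 4.10 in ICAM1-high libraries, had the lowest levels there, and in ICAM1-low libraries they were at 1.98 ± 2.13 and 1.53 ± 0.879. The length is 1 deposited value per gene, and the sources used here do not say how it was derived. The order of the genes depends on it. In ICAM1-high libraries Cenpf, given 714.9 bases, came out at 8.51, above Mki67, given 10825 bases. Their mean levels there were 3.57 and 46.8 CPM.

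The libraries of a group also differed among themselves in a shared way. Of the 39 genes, 22 had their highest ICAM1-high level in replicate 5 and 12 in replicate 1, and 21 had their lowest in replicate 3. Among the ICAM1-low libraries, the library labelled ICAM1-low replicate 5 was highest for 16 and replicate 1 for 13, and 26 were lowest in replicate 3. All 39 genes had at least 10 counts in all 4 ICAM1-high libraries, so a library at 0 could only be an ICAM1-low one. The 7 genes with such a library were Aurka, Aurkb, Birc5, Plk1, Cenpf, Kif11 and Nusap1. All 7 are genes of mitosis that passed the filter on low counts through the ICAM1-high libraries.

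Further genes of the same pathways were looked at as lists. Among other genes of DNA replication and S phase, 37 of 38 were tested, 1 rose and 0 fell. There, 36 had a positive log2 fold change and the median was 1.60. The gene that rose was Fen1, the nuclease that trims Okazaki fragments, at 76.1, 52.7, 24.4 and 55.2 CPM in ICAM1-high libraries, against 3.58, 5.04, 8.36 and 5.09 CPM in ICAM1-low libraries. Fen1 did not overlap between groups (3.24 ± 0.58; edgeR adjusted p = 0.0239, and 0.0235 to 0.0966 over the fits that left out 1 library each). Next in order of p were Asf1b, a histone chaperone (edgeR adjusted p = 0.0555; at 5.02 to 28.1 CPM in ICAM1-high and 0 to 0.789 CPM in ICAM1-low libraries), and Dnmt1, which copies DNA methylation at replication forks (1.88 ± 0.45; edgeR adjusted p = 0.0624). Both passed without the library labelled ICAM1-low replicate 5 (edgeR adjusted p = 0.0245 for Asf1b, within 0.0245 to 0.161 over the fits that left out 1 library each, and 0.0485 for Dnmt1, within 0.0485 to 0.189). Mcm10, Cdt1 and Pclaf also passed as higher without that library (edgeR adjusted p = 0.0457, 0.0233 and 0.0416, against 0.653, 0.183 and 0.077 with it). Mcm10 had 2 ICAM1-low libraries at or under the floor. Among 44 other genes of G2 and M phase, 0 passed in either direction with the adjusted p, while 15 were higher and 1 lower at the unadjusted threshold. The median was 1.62, and 36 had a positive log2 fold change. Without the library labelled ICAM1-low replicate 5, Ttk, Kif15, Smc2 and Cep55 passed as higher (edgeR adjusted p = 0.0434, 0.0346, 0.0376 and 0.0483). With it their edgeR adjusted p was 0.663, 0.673, 0.226 and 0.198. Ttk, Kif15 and Cep55 had ICAM1-low libraries at or under the floor. Spc25 and Nuf2, parts of the Ndc80 complex that grips microtubules, led the list with log2 fold changes of 4.26 ± 1.22 and 4.22 ± 1.30 (edgeR adjusted p = 0.117 and 0.14). They too had ICAM1-low libraries at or under the floor, 2 for Spc25 and 3 for Nuf2. Lmnb1, a nuclear lamina protein, was at 16.4 to 47.6 CPM in ICAM1-high and 42.7 to 499 CPM in ICAM1-low libraries, the highest in the library labelled ICAM1-low replicate 5. Its log2 fold change was -2.68 with that library (edgeR adjusted p = 0.138) and -1.14 without it.

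Genes that govern entry into the cycle had medians nearer to that of all genes, or below it. Of 20 G1 cyclins and E2F and FoxM1 regulators, 0 passed, with 2 higher and 1 lower at the unadjusted threshold, and the median log2 fold change was 0.48. The unadjusted backgrounds were 7.96% higher and 8.96% lower. A positive log2 fold change was found for 15 of the 20, against 47.7% of all genes tested. E2f7, a repressive E2F factor, was at 1.09, 1.57, 8.98 and 4.64 CPM in ICAM1-high libraries, against 0, 0, 0.16 and 0 CPM in ICAM1-low libraries, all at or under the floor (edgeR adjusted p = 0.0767). Ccnd3, cyclin D3, lay the other way without overlap, at 104, 88.2, 59.6 and 57.5 CPM in ICAM1-high and 144, 196, 250 and 338 CPM in ICAM1-low libraries (-1.59 ± 0.43; edgeR adjusted p = 0.0975). The log2 fold change of Ccne1, cyclin E1, was 2.29 ± 0.83 (edgeR adjusted p = 0.198), and it passed at 3.29 without the library labelled ICAM1-low replicate 5 (edgeR adjusted p = 0.0431, within 0.0431 to 0.407 over the fits that left out 1 library each). Of 16 cell cycle inhibitors and pocket proteins, 14 were tested and 0 passed, with 2 higher and 3 lower at the unadjusted threshold, 5 with a positive log2 fold change and a median of -0.79. Its leading genes were Rbl1, the pocket protein p107 (1.5 ± 0.58; edgeR adjusted p = 0.222), Btg2, an antiproliferative gene (-1.94 ± 0.75; edgeR adjusted p = 0.225), and Cdkn2d, the Cdk4 and Cdk6 inhibitor p19 (-1.51 ± 0.59; edgeR adjusted p = 0.228). The values of Btg2 and Cdkn2d leaned on the library labelled ICAM1-low replicate 5, and without it they were -0.52 and -0.84. Cdkn1a, Btg1 and Cdkn1b also moved up without it, from -1.07, -1.01 and -1.27 to 0.23, 0.14 and -0.58. Cdkn1c, Cdkn2c, E2f5, Gas1 and Trp53 moved down. The list median of -0.79 therefore leaned on that library too.

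**Figure D4:**
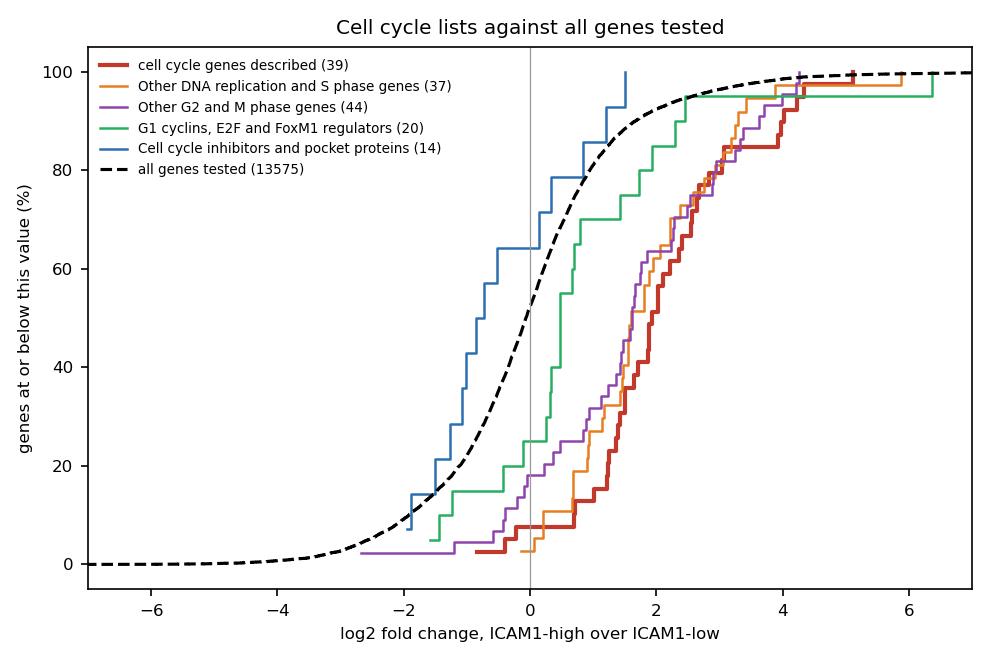
Cumulative share of genes (%) at or below each log2 fold change, ICAM1-high over ICAM1-low, for the 39 genes described, 4 further cell cycle lists and all genes tested (dashed). The curves of the 39 genes and of the S and G2/M lists lie to the right of all genes (medians 1.93, 1.60 and 1.62, against -0.07), and that of the inhibitors to the left (-0.79). The inhibitor median leaned on the library labelled ICAM1-low replicate 5.

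Markers of some other cell types moved with the same groups, and their part in the cell cycle differences was not tested. Macrophage markers, 12 of 12 in the table and none at 0, summed to 8868, 5698, 5794 and 17135 CPM in ICAM1-high libraries, against 772, 756, 797 and 1266 CPM in ICAM1-low libraries, and 10 of the 12 rose. Dendritic cell markers summed to 2755 to 6050 CPM in ICAM1-high and 191 to 454 CPM in ICAM1-low libraries. Of 7 tested, 4 were higher (Ciita, H2-Aa, H2-Ab1 and Cd74), and the sum was mostly H2-Aa, H2-Ab1 and Cd74. Xcr1, Zbtb46 and Ccr7 did not pass (edgeR adjusted p = 0.228, 0.843 and 0.288), and Flt3 was at 0 in all ICAM1-low libraries. T and NK cell markers summed to 112 to 429 CPM in ICAM1-high and 5.96 to 81.6 CPM in ICAM1-low libraries, with 1 of 10 tested higher. B and plasma cell markers were at 283 to 2187 CPM in ICAM1-high and 51.4 to 429 CPM in ICAM1-low libraries, with 0 of 8 past the threshold in edgeR and 3 higher at the unadjusted p. Endothelial markers ran from 20.4 to 67.5 CPM in ICAM1-high and from 1.6 to 26.8 CPM in ICAM1-low libraries. Of 4 tested, 0 passed in edgeR, and 2 had a positive and 2 a negative log2 fold change. Fibroblast markers ran from 674 to 2953 CPM in ICAM1-high libraries and from 1905 to 3657 CPM in ICAM1-low libraries, and none passed in edgeR, with 0 higher and 1 lower at the unadjusted p. Monocyte markers were mixed. Of 7 tested, Ccr2, Cx3cr1 and Ms4a4c rose (log2 fold changes 3.81, 3.06 and 4.29) and Ly6c2 fell (-2.60), while their sum, of 2750 to 5179 CPM in ICAM1-high and 6743 to 14948 CPM in ICAM1-low libraries, was mostly Fn1. Epithelial and mammary tumour markers, 9 of 12 in the table and 5 tested, were low in both groups, at 26.8 to 34.5 CPM in ICAM1-high and 16.2 to 87.3 CPM in ICAM1-low libraries.

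The list for dividing neutrophil precursors had 12 of 13 genes in the table and 6 tested, of which 2 fell (Ltf and Ngp). It summed to 359, 694, 564 and 77.2 CPM in ICAM1-high libraries, against 3983, 4219, 2215 and 5756 CPM in ICAM1-low libraries. Most of this came from the granule genes Ltf, Lcn2 and Ngp, which are made later in maturation than Mpo and Elane. The genes of earlier precursors were low and had no shared direction. Mpo (myeloperoxidase) was at 0 in 7 of 8 libraries and at 8.35 CPM in ICAM1-high replicate 3, Elane (neutrophil elastase) was at 0 in 5 and Ms4a3 in 6. Prtn3 (proteinase 3) was at 0 in none, with 0.221 to 2.9 CPM in ICAM1-high and 0.263 to 11.6 CPM in ICAM1-low libraries. Gfi1, a transcription factor of granulocyte precursors, was at 0.618, 2.74, 0.29 and 1.55 CPM in ICAM1-high libraries and at 0 in all 4 ICAM1-low libraries. Fcnb was at 0 in 3 libraries and Cebpe in 4.

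**Figure D5:**
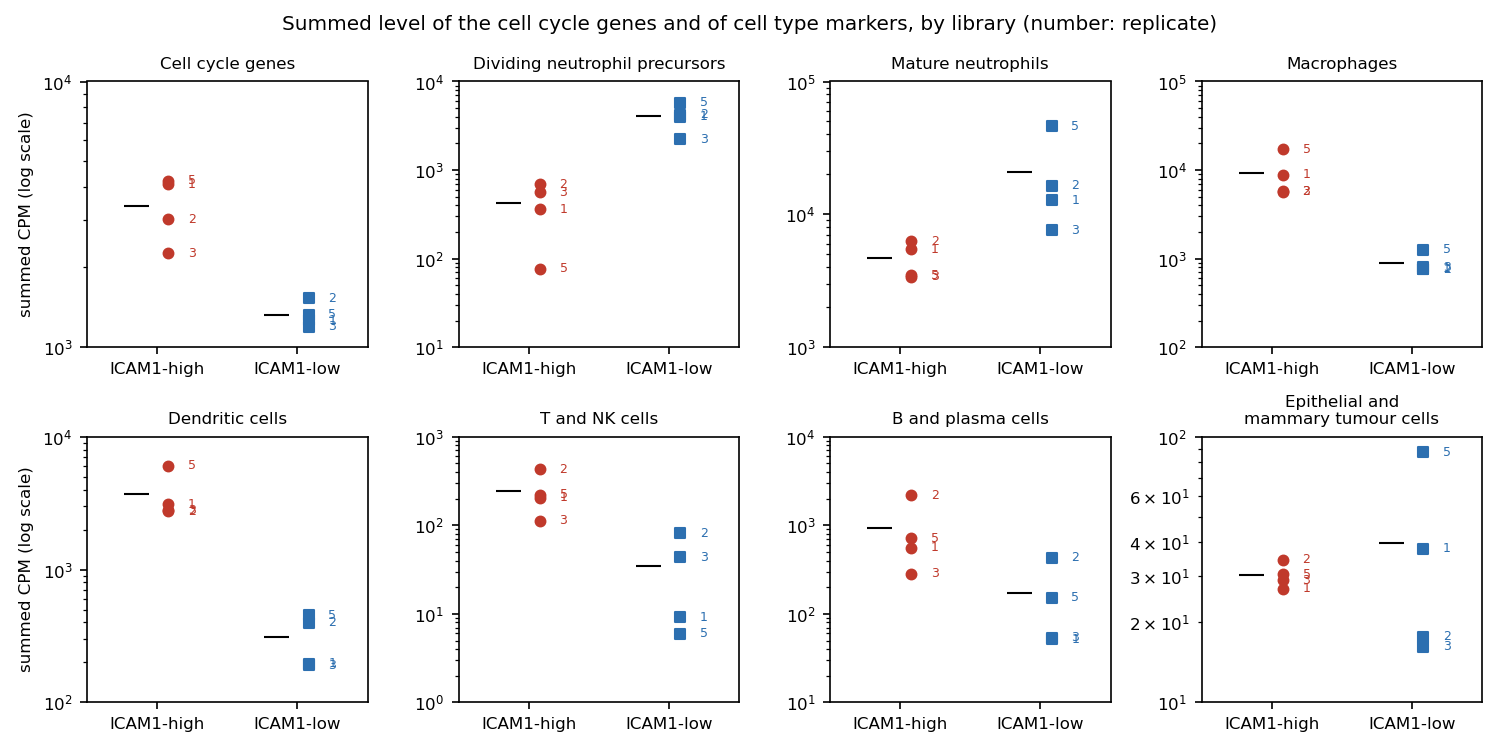
Summed CPM on log axes of the 39 cell cycle genes and of 7 marker lists by library, with replicate numbers and the group mean as a bar. Macrophage markers lie above, and both neutrophil lists below, in every ICAM1-high library relative to every ICAM1-low library.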

How the data were processed

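RNA was measured in 4 ICAM1-high and 4 ICAM1-low libraries, each from 150 pg of total RNA; the QIAseq FX Single Cell kit was used, per the labels' protocols. Trim Galore 0.6.6, Salmon 1.9.0 and the build GRCm39 (mm39) are named in the submitters' processing notes; the sources used here do not name the annotation or settings. The authors deposited estimated counts per gene in 1 table of 25669 rows. There, 88 identifiers repeated under several symbols were kept once (25572), and 6482 missing symbols were filled from a reference name table. No molecular identifiers are mentioned, so counts need not be independent molecules.

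Estimated counts were rounded, filtered with edgeR's filterByExpr by group (13575 genes) and TMM-scaled. Groups were compared by edgeR's quasi-likelihood test (edgeR 4.0.16, R 4.3.3) with no covariate; p-values were adjusted over all genes tested (Benjamini-Hochberg, threshold 0.05). An error on a log2 fold change is its SE, and one on a level is an SD over 4 libraries. The biological coefficient of variation was 0.858. Fitting was tested on simulated counts. Alternatives were RLE scaling, library sizes only, a filter of 10 CPM in 4 libraries, none beyond 1 count, DESeq2 1.42.0, limma-voom (limma 3.58.1) with sample weights, a replicate block, leaving out each library, and leaving out both libraries numbered 5. Promoter sequences came from RefSeq (GRCm38.p6), matched by symbol, and the 50 bases after the start were not searched.

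All 39 genes are described. Of each further cell cycle list, the 3 tested genes with the smallest p are named. Any past the threshold, with or without the library labelled ICAM1-low replicate 5, are named too. Some inhibitors are also named for how their values moved without that library. Marker lists are given as sums, with only some of their genes at 0 named. Marker genes named with values beyond those at 0 (such as Ly6g, Ltf, Prtn3 and Fn1) were named after their values were seen. The genes and lists were chosen with earlier results of these data known.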

Additional observations from a re-analysis of the deposited data

Results flagged for a closer look

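In 10 of 96 sets of 4 libraries, a library stood far from the other 3 by a test on the gap. The sets were each of the 39 genes, the 8 role sums and the sum of all 39, in each group. Chance passes the test in about 1 of 20 sets if values are normally distributed. CPM need not be so distributed and the sums contain the genes, so the 10 cannot be read against that rate. In the library labelled ICAM1-low replicate 5, Mki67 was at 24.4 CPM (6.11 to 7.78 in the other ICAM1-low libraries), Cenpa at 35.3 CPM (4.21 to 7.12) and Cks2 at 24.0 CPM (8.3 to 9.64). In the same library the replication genes summed to 344 CPM (180 to 195 in the others) and the centromere genes to 37.7 CPM (4.63 to 8.83). These values hold after TMM scaling. With library sizes only, the ICAM1-low sums ran from 171 to 246 CPM for the replication genes and from 4.42 to 27 CPM for the centromere genes. The gap was not tested on that scale. In ICAM1-low replicate 1, Aurka was at 8.55 CPM (0 to 1.32 in the others) and Plk1 at 9.73 CPM (0 to 1.48). In ICAM1-low replicate 2, Cdk1 was at 33.7 CPM (5.18 to 8.41 in the others). In ICAM1-high replicate 5, Tuba1b was at 825 CPM (378 to 404 in the other ICAM1-high libraries) and Stmn1 at 53.6 CPM (15.4 to 19.6).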

How the results depend on the processing

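The number of the 39 genes that rose (3) was 1 with RLE scaling, 6 with library sizes only, 7 with no filter, 5 (of 32 tested) with the filter of 10 CPM, 12 with DESeq2, 11 with limma-voom, 4 without both libraries numbered 5 and 0 to 8 over the fits that left out 1 library each; 0 fell in any of these. Of the further cell cycle genes, 1 rose, against 4 with library sizes only, 3 with no filter, 2 with the filter of 10 CPM, 16 with DESeq2, 13 with limma-voom, 4 without both libraries numbered 5 and 0 to 11 with 1 library left out; 0 fell, against 1 with DESeq2 and 1 with limma-voom. Over all genes, 166 rose, against 258 with library sizes only, 584 with DESeq2, 480 with limma-voom and 4 to 337 with 1 library left out; 37 fell, against 120 with no filter, 61 with the filter of 10 CPM, 642 with DESeq2, 376 with limma-voom, 190 without both libraries numbered 5 and 0 to 241 with 1 library left out. The median log2 fold change of the 39 genes stayed between 1.74 and 2.27. The fold of their summed CPM was 2.96 with library sizes only, 2.36 without both libraries numbered 5 and 2.36 to 2.86 with 1 library left out. Library sizes only moved the median of all genes tested by 0.24. Hmgb2 turned to 0.10 with library sizes only, 0.06 with limma-voom, 0.35 without the library labelled ICAM1-low replicate 5 and 0.04 without both libraries numbered 5, and Tyms to 0.42 without ICAM1-low replicate 3. With 1 library left out, Hmgb2 ran from -0.52 to 0.35 and Tyms from -1.04 to 0.42. The cause was not tested. Of 649 single-gene values, 580 kept direction and side of the threshold.

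The labels do not say that a replicate number marks a shared animal or day, and same-numbered libraries deviated together weakly (r = -0.146, 0.120, 0.154 and 0.380 across genes for numbers 1, 2, 3 and 5; libraries 2 and 5 matched their own number best). With the replicate block, 7 of the 39 genes rose, as did 5 further cell cycle genes, and 280 genes rose and 261 fell over the whole table; Tyms turned to 0.27 and the median was 2.22.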

Other observations

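The linker histones package DNA between nucleosomes, and some are made with replication. Of 6 genes listed, 5 were tested, 0 passed in edgeR in either direction and 0 did so at the unadjusted p, 2 had a positive log2 fold change and 3 a negative one, and the median was -0.13. H1f2 was at 425, 218, 169 and 98.1 CPM in ICAM1-high libraries, against 306, 210, 517 and 330 CPM in ICAM1-low libraries, with wide overlap (log2 fold change -0.58 ± 0.51, SE). H1f4 ran from 0.238 to 11.9 CPM in ICAM1-high and from 0 to 10.8 CPM in ICAM1-low libraries (0.83 ± 1.47). H1f5 ran from 0.0966 to 3.81 CPM in ICAM1-high and from 0 to 2.67 CPM in ICAM1-low libraries (1.03 ± 1.79).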
